A study of Mus musculus with 14 samples.

Results

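The genes described here are 10 endoplasmic reticulum stress genes of the mouse: Hspa5, Hsp90b1, Calr, Dnajb9, Herpud1, Sec24d, Xbp1, Atf4, Ddit3 and Trib3. They were taken as a named list, chosen with earlier results of these data known. Counts of the 10 set beside shares of all genes are therefore descriptions and no independent test. A probe was assigned to a gene by matching its RefSeq accession to the gene's symbol. All 10 had at least 1 probe, 17 probes in all, and they were 10 of 30579 genes tested. Of those 30579, 17290 had a symbol, and the shares of all genes below include those without one.

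Lungs of male C57BL/6N mice were taken 1 month after 200 µg of carbon fibre per mouse had been given into the trachea. The VCF group (3 arrays) received carbon fibre before recycling, the CCF group (3 arrays) fibre after carbonization, the RCF group (3 arrays) fibre after firing, and the control group (5 arrays) the PBS vehicle alone. The labels name no transgene or deletion, and the ages of the mice were not given in the sources used here. RNA of whole lung was labelled with Cy3 and hybridised to 14 Agilent arrays, which the series describes as independent biological samples.

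Proteins that enter the secretory pathway fold in the endoplasmic reticulum, and unfolded protein there activates the sensors IRE1, PERK and ATF6. IRE1 splices the mRNA of Xbp1, PERK raises translation of Atf4 mRNA, and ATF6 is cut to release a transcription factor, and together these raise chaperones, degradation factors and export machinery. In the lung, secretory cells such as alveolar type 2 cells, club cells and plasma cells carry a heavy load of such proteins. The arrays measured transcript levels and neither splicing of Xbp1 nor translation.

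A level below is the log2 signal of a probe minus the 75th percentile of its array, so 0 is the signal at that percentile and a difference of 1 is a doubling of signal on this scale. A gene with several probes is given by the one with the highest mean level, and levels of different genes are not compared, since probes differ in response. Differences were tested with limma in 1 fit of all 4 groups, with Benjamini-Hochberg adjustment over all genes and a threshold of 0.05, and the number of arrays limits their precision. The brightest probe of each of the 10 genes was above background on all 14 arrays, and no probe was saturated. The 75th percentile of signal ran between 277 (VCF 1) and 2953 (RCF 2), and VCF 1, CCF 2 and RCF 1 were the dimmest arrays of their groups. The arrays lay on 3 slides, slide 3 scanned on another day than slides 1 and 2, and each slide held at least 1 control array beside fibre arrays. Slide 2 held only control 3, VCF 3 and CCF 3. Sftpc, Scgb1a1 and Cdh5, which mark alveolar type 2 cells, club cells and endothelium, were above background on all 14 arrays. Because whole lung was used, fewer cells of a type and less RNA per cell cannot be told apart.

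The transcription factors of the pathway are known to act through short promoter elements. RefSeq promoter windows of 300 bases, 250 before to 50 after the start site on build GRCm38.p6, matched all 10 genes and were searched on both strands for 5 motifs. The endoplasmic reticulum stress element (ERSE) was searched as CCAAT and CCACG with any 9 bases between them, ERSE-II as ATTGG and CCACG with any 1 base between them, the unfolded protein response element (UPRE) as TGACGTGG, the C/EBP-ATF response element (CARE) as TGATGNAA and the cyclic AMP response element (CRE) as TGACGTCA. ERSE and ERSE-II share the letters CCACG, and UPRE and CRE share TGACGT. Of 32851 promoters of that length, 0.119% held ERSE, 0.0365% ERSE-II, 0.676% UPRE, 3.97% CARE and 1.79% CRE. A match is a match of letters in this window and no measurement of binding.

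Sec24d and Dnajb9 are shown because their transcripts differed between fibre and control lungs. The Sec24d window (chr3:123267246-123267545, plus strand) held UPRE, in capitals, starting 26 bases before the start site (position -26), and the Dnajb9 window (chr12:44210019-44210318, minus strand) held none of the 5 motifs.
Sec24d: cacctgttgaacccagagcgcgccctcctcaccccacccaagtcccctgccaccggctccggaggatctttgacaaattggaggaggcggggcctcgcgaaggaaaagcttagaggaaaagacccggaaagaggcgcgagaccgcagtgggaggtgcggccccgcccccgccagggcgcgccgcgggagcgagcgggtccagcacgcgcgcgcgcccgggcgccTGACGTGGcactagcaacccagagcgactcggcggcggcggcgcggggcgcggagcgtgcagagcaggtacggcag
Dnajb9: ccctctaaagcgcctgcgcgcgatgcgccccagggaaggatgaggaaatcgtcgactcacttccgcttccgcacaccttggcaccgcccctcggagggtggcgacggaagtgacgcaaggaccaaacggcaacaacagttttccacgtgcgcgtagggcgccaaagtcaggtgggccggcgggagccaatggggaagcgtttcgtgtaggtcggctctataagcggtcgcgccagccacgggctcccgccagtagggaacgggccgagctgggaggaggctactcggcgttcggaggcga

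Hspa5, Hsp90b1 and Calr are shown because they encode the main chaperones and all 3 windows held ERSE, in capitals. The Hspa5 match (chr2:34771840-34772139, plus strand) started at position -65. Hsp90b1 (chr10:86705395-86705694, minus strand) had 2 matches, at positions -212 and -107, the second on the opposite strand. The Calr match (chr8:84846882-84847181, minus strand), also on the opposite strand, started at position -162.
Hspa5: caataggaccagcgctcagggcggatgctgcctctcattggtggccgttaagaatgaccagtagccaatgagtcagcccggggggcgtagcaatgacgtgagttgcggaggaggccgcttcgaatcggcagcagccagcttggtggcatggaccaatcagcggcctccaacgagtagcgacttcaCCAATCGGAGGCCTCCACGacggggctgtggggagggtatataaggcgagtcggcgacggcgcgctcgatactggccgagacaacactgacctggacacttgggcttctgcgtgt
Hsp90b1: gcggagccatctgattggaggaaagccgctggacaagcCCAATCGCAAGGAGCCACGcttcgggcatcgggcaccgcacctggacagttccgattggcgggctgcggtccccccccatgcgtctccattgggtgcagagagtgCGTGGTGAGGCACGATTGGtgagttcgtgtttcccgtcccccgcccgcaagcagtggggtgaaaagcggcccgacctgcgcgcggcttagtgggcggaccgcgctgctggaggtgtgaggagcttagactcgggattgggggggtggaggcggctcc
Calr: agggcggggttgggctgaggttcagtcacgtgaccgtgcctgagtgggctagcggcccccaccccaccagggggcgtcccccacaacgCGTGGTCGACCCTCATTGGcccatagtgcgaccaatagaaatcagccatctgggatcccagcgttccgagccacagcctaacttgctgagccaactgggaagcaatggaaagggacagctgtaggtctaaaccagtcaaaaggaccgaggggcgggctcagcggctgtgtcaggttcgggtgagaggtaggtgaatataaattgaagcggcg

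The Herpud1 window (chr8:94386179-94386478, plus strand) is shown because it was the only one of the 10 with ERSE-II, at position -52, and it also held CARE on the opposite strand at position -112, both in capitals. Trib3 held CARE on the opposite strand at position 14. No motif of the 5 was found in the windows of Ddit3, Xbp1 and Atf4, and CRE was found in none of the 10.
Herpud1: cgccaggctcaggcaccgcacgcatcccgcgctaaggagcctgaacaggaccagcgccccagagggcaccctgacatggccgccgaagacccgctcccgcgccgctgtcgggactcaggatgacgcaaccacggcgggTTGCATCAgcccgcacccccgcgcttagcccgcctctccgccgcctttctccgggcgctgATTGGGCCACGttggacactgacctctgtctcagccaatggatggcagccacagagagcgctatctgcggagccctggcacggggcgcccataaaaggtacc

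Of the 10 transcripts, 2 differed from control at the threshold: Sec24d was higher in CCF and RCF lungs and Dnajb9 was higher in CCF lungs. None was lower, and the main chaperones Hspa5, Hsp90b1 and Calr and the transcription factors Xbp1, Atf4 and Ddit3 did not pass the test with their brightest probes. In VCF lungs 0 of the 10 passed in limma, where 0.0294% of all genes were called higher and 0.0556% lower, and 1 of the 10 (Calr, lower) had an unadjusted p under 0.05, as had 4.99% of all genes in that direction. In CCF lungs 2 of the 10 were called higher, where 3.78% of all genes were called higher and 2.21% lower. In RCF lungs 1 of the 10 was called higher, where 0.131% of all genes were called higher and 0.0229% lower. Over the 10 genes the median difference from control was 0.09 for VCF, 0.23 for CCF and 0.15 for RCF, where the median over all genes was -0.0027, -0.0031 and 0.06. In each fibre group 7 of the 10 differences were positive, as were 49.7% of all genes in VCF, 49.7% in CCF and 57.1% in RCF lungs. Under median scaling 5 of the 10 were positive in VCF, 8 in CCF and 5 in RCF lungs. The 3 comparisons share the same 5 control arrays.

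**Figure D1:**
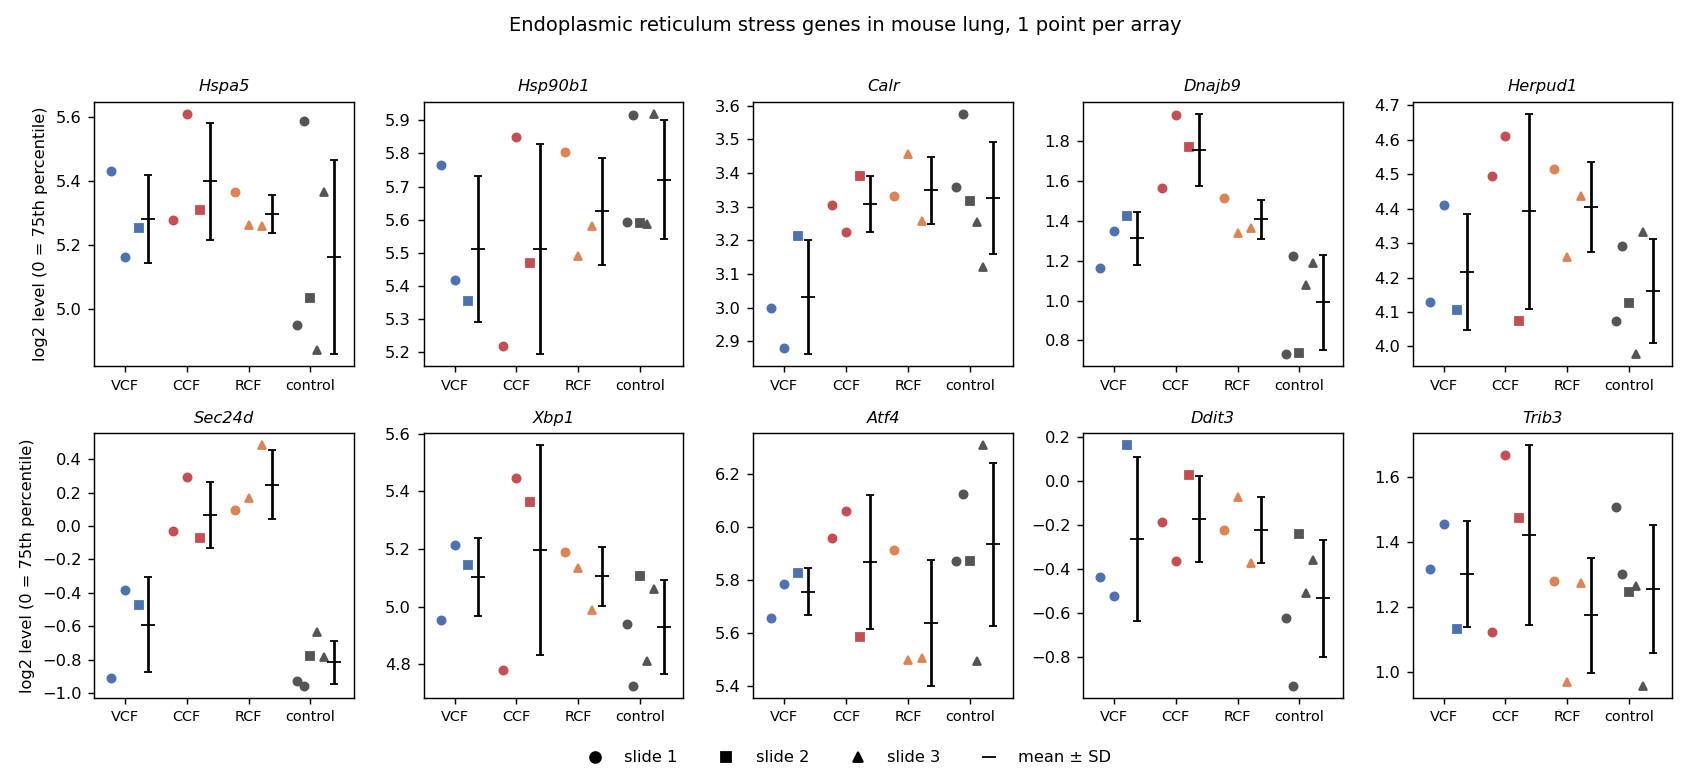
Log2 level of each of the 10 genes (brightest probe) on every array, relative to the 75th percentile of that array, for VCF, CCF, RCF and control lungs; points are arrays and bars the mean ± SD. The 3 CCF and 3 RCF arrays lie above all 5 control arrays for Sec24d and Dnajb9, while the groups overlap for Hspa5, Hsp90b1, Xbp1, Atf4, Ddit3, Herpud1 and Trib3.

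Sec24d encodes a cargo-binding subunit of the COPII coat, which carries folded protein out of the endoplasmic reticulum. Its level was -0.91, -0.38 and -0.47 in the 3 VCF lungs, -0.03, 0.29 and -0.07 in CCF lungs and 0.10, 0.17 and 0.48 in RCF lungs, against -0.93, -0.96, -0.78, -0.64 and -0.79 in control lungs. Every CCF and RCF array was above every control array, and VCF 1 lay within the control range. Ranges lay apart and higher for 9.89% of all genes in CCF and 7.62% in RCF lungs.

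Sec24d was 1.84-fold higher in CCF lungs (log2 difference 0.88 ± 0.16 SE, 95% confidence interval 0.54 to 1.23, limma adjusted p = 0.0141). In RCF lungs it was 2.09-fold higher (1.07 ± 0.16, interval 0.72 to 1.41, limma adjusted p = 0.0375). In VCF lungs the difference was 0.23 ± 0.16, with an interval of -0.12 to 0.57, and did not pass (limma adjusted p = 0.725). Group means were -0.59 ± 0.28 in VCF, 0.07 ± 0.20 in CCF, 0.25 ± 0.21 in RCF and -0.82 ± 0.13 in control lungs (SD). Within slides the CCF difference was 1.07 on slide 1 and 0.71 on slide 2, and the RCF difference was 1.04 on each of slides 1 and 3. The value on slide 2 sets CCF 3 against control 3 alone, and RCF 1 was the only RCF array on slide 1. With slide as a fixed block the differences were 0.96 in CCF (limma adjusted p = 0.0168) and 1.02 in RCF lungs (limma adjusted p = 0.028). The RCF call held without control 2, VCF 1 or CCF 2 and was lost without any other single array (limma adjusted p up to 0.161, difference 0.95 to 1.14). It was also lost under median scaling (0.90, limma adjusted p = 0.519), with quantile scaling, with no filter on dim probes and with only the groups compared. The replicate number as a block and leaving out the dimmest array of each fibre group ended it too. In all, the RCF call was lost in 17 alternatives. The CCF call was lost in 3 alternatives. These were leaving out CCF 2 (0.77, limma adjusted p = 0.066), median scaling (0.91, limma adjusted p = 0.163) and the replicate number as a block (0.95, limma adjusted p = 0.0995). A single probe stood for Sec24d, so no other probe could be set beside it.

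Dnajb9 encodes an Hsp40 co-chaperone of the endoplasmic reticulum, known as ERdj4, which works with the Hspa5 protein and is a target of spliced XBP1. Its level was 1.16, 1.35 and 1.42 in VCF lungs, 1.57, 1.93 and 1.77 in CCF lungs and 1.51, 1.34 and 1.37 in RCF lungs, against 0.73, 1.22, 0.74, 1.08 and 1.19 in control lungs. All 3 CCF and all 3 RCF arrays were above the highest control array, and the VCF arrays overlapped the controls.

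Dnajb9 was 1.70-fold higher in CCF lungs (log2 difference 0.76 ± 0.15 SE, interval 0.43 to 1.09, limma adjusted p = 0.0189). The difference was 0.41 ± 0.15 in RCF lungs (interval 0.08 to 0.75, limma adjusted p = 0.259) and 0.32 ± 0.15 in VCF lungs (interval -0.01 to 0.65, limma adjusted p = 0.519), and neither passed. Within slides the CCF difference was 0.77 on slide 1 and 1.03 on slide 2, where it sets CCF 3 against control 3 alone. With slide as a fixed block the CCF difference was 0.80 (limma adjusted p = 0.0274). The CCF call was lost in 8 alternatives. These included leaving out CCF 2 (0.68, limma adjusted p = 0.0866) or CCF 3 (0.76, limma adjusted p = 0.0571) and median scaling (0.79, limma adjusted p = 0.143). It was also lost with no filter on dim probes, with the mean of all probes of a gene and with only the groups compared. The replicate number as a block and leaving out the dimmest array of each fibre group ended it too. A second, dim Dnajb9 probe was above background on 11 of the 14 arrays, and its differences were 1.00 ± 0.55 in CCF and 1.27 ± 0.55 in RCF lungs, neither past the test over all probes (limma adjusted p = 0.296 and 0.344).

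The mean of the 3 fibre groups was also set against control, where 2% of all genes were called higher and 0.579% lower. Sec24d was 1.65-fold higher (0.72 ± 0.12 SE, limma adjusted p = 0.0179) and above the control mean in 8 of 9 fibre lungs, all but VCF 1. Dnajb9 was 1.41-fold higher (0.50 ± 0.12, limma adjusted p = 0.0466) and above the control mean in 9 of 9 fibre lungs. The Dnajb9 call held without control 2 or VCF 1 and was lost without any other single array (limma adjusted p up to 0.118), and the Sec24d call was lost without control 1 or control 4 (limma adjusted p = 0.0594 and 0.0538). By slide, the Dnajb9 difference was 0.53, 0.86 and 0.22 on slides 1, 2 and 3, and that of Sec24d was 0.75, 0.51 and 1.04. Slides differ in which fibres they hold, slide 2 having no RCF array and slide 3 no other fibre. The only control array on slide 2 was control 3.

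**Figure D2:**
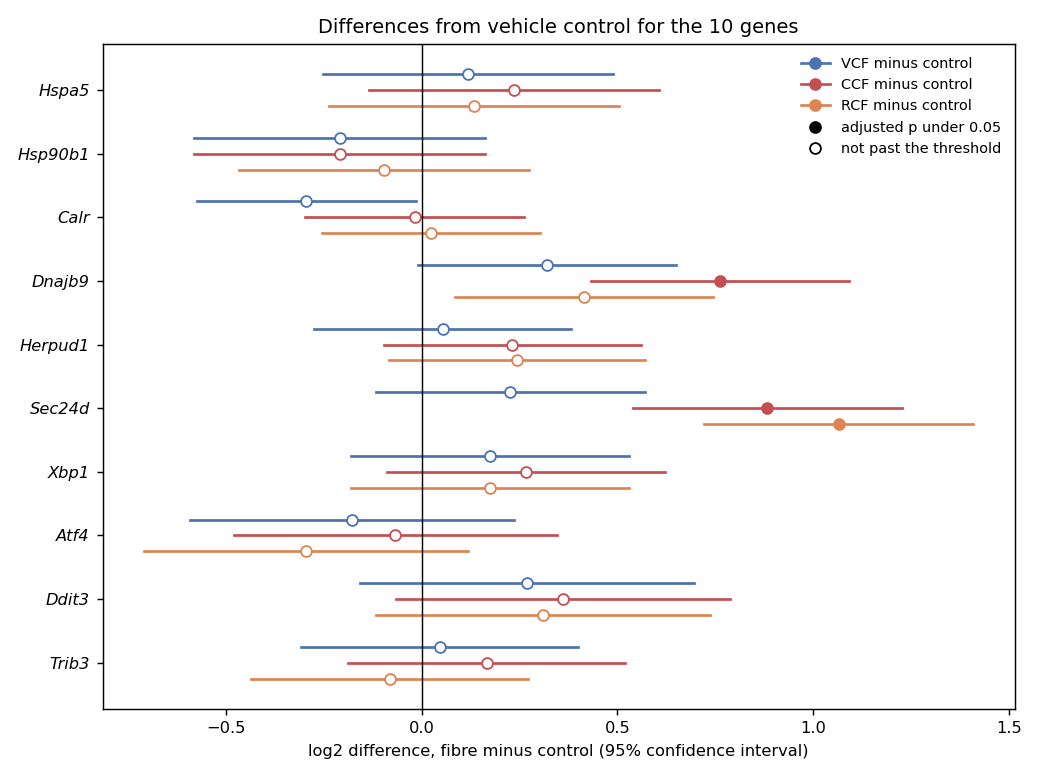
Log2 difference from control of each of the 10 genes in VCF, CCF and RCF lungs, with 95% confidence intervals from limma; filled symbols passed the adjusted threshold. Filled are Sec24d in CCF (0.88) and RCF lungs (1.07) and Dnajb9 in CCF lungs (0.76), and the other intervals include 0 except those of Dnajb9 in RCF and Calr in VCF lungs.

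Among the chaperones, Hspa5 (BiP), the central chaperone that binds unfolded chains and holds the sensors inactive, overlapped between groups. Its level was 5.43, 5.16 and 5.25 in VCF lungs, 5.28, 5.61 and 5.31 in CCF lungs and 5.37, 5.26 and 5.26 in RCF lungs, against 4.95, 5.59, 5.04, 4.87 and 5.37 in control lungs. The control lungs spanned the widest range, and control 2 was close to the highest CCF lung. The differences were 0.12 ± 0.17 in VCF, 0.24 ± 0.17 in CCF and 0.13 ± 0.17 in RCF lungs (SE, limma adjusted p = 0.91, 0.447 and 0.828). The interval in CCF lungs was -0.13 to 0.61. Both other Hspa5 probes were highest on VCF 3, and next highest on control 3, both on slide 2, at 2.84 and 2.55 for one probe and 2.44 and 2.19 for the other. The first of these probes differed by 0.19, 0.16 and -0.03 in VCF, CCF and RCF lungs (each ± 0.20 SE). For the second the differences were 0.16, 0.21 and 0.10 (each ± 0.21 SE), and neither probe passed over all probes.

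Hsp90b1 (GRP94), the endoplasmic reticulum member of the HSP90 family, was 5.76, 5.42 and 5.36 in VCF lungs, 5.22, 5.85 and 5.47 in CCF lungs and 5.81, 5.49 and 5.58 in RCF lungs, against 5.59, 5.92, 5.59, 5.59 and 5.92 in control lungs. Its 3 differences were between -0.21 and -0.10, the ranges overlapped, and none passed (limma adjusted p between 0.508 and 0.892). Calr, calreticulin, a lectin chaperone that also buffers calcium, was 3.00, 2.88 and 3.21 in VCF lungs, 3.30, 3.22 and 3.39 in CCF lungs and 3.33, 3.46 and 3.26 in RCF lungs, against 3.36, 3.58, 3.32, 3.26 and 3.12 in control lungs. VCF 1 and VCF 2 were below every control array while VCF 3 was within their range. The VCF difference was -0.29 ± 0.13 SE with an interval of -0.57 to -0.02, and it did not pass over all genes (limma adjusted p = 0.474).

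Herpud1 encodes a membrane protein of the complex that sends misfolded protein to the proteasome. Its level was 4.13, 4.41 and 4.11 in VCF lungs, 4.49, 4.61 and 4.07 in CCF lungs and 4.52, 4.26 and 4.44 in RCF lungs, against 4.07, 4.29, 4.13, 3.98 and 4.33 in control lungs. The groups overlapped, with CCF 3 among the low controls, and the differences were 0.05, 0.23 and 0.24 in VCF, CCF and RCF lungs (each ± 0.15 SE, limma adjusted p = 0.963, 0.389 and 0.552). A second Herpud1 probe was 2.25, 2.29 and 2.45 in CCF lungs, against 1.5, 1.84, 2.24, 1.78 and 1.79 in control lungs. All 3 CCF values of that probe were above the controls, by a margin of 0.01 over control 3, and its difference of 0.50 ± 0.17 did not pass over all probes (limma adjusted p = 0.0977).

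Xbp1, whose spliced mRNA encodes the transcription factor of the IRE1 branch, was 4.95, 5.22 and 5.14 in VCF lungs, 4.78, 5.45 and 5.36 in CCF lungs and 5.19, 5.14 and 4.99 in RCF lungs, against 4.94, 4.73, 5.11, 4.81 and 5.06 in control lungs by its brightest probe. CCF 1 was among the lowest lungs and CCF 2 and CCF 3 were the highest. The differences were 0.17, 0.27 and 0.18 in VCF, CCF and RCF lungs (each ± 0.16 SE, limma adjusted p = 0.829, 0.353 and 0.726).

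The 3 Xbp1 probes disagreed in size. The dimmest of them was 0.04, 0.79 and 0.78 in VCF lungs, 0.95, 1.10 and 1.09 in CCF lungs and 0.90, 0.20 and -0.17 in RCF lungs, against -0.17, 0.15, 0.18, -0.66 and -0.93 in control lungs. The CCF lungs lay together above all controls, and of the RCF lungs RCF 1 lay just below the CCF range, RCF 2 just above the highest control and RCF 3 within the control range. With every probe tested by itself, a way of testing added after the data had been seen, this probe was 2.52-fold higher in CCF lungs (1.34 ± 0.31 SE, limma adjusted p = 0.0306 over 37984 probes, of which 3.82% were called higher). That call was lost in 8 of the 17 alternatives run for this probe. Among them were fits without control 1, control 4, control 5 or any 1 CCF array, with differences of 1.17 to 1.45 over the arrays left out. Another was the fit with the replicate number as a block (0.99, limma adjusted p = 0.183). With slide as a fixed block the difference was 0.98 (limma adjusted p = 0.0232). Controls 4 and 5, the lowest for this probe, lay on slide 3, which held no CCF array. The intermediate Xbp1 probe was 1.38, 1.52 and 1.74 in CCF lungs, against 0.55, 1.02, 1.13, 0.53 and 0.27 in control lungs. Its CCF arrays were also above all controls, with a difference of 0.85 ± 0.25 that did not pass (limma adjusted p = 0.0663). Whether a probe distinguishes spliced from unspliced Xbp1 was not tested.

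**Figure D3:**
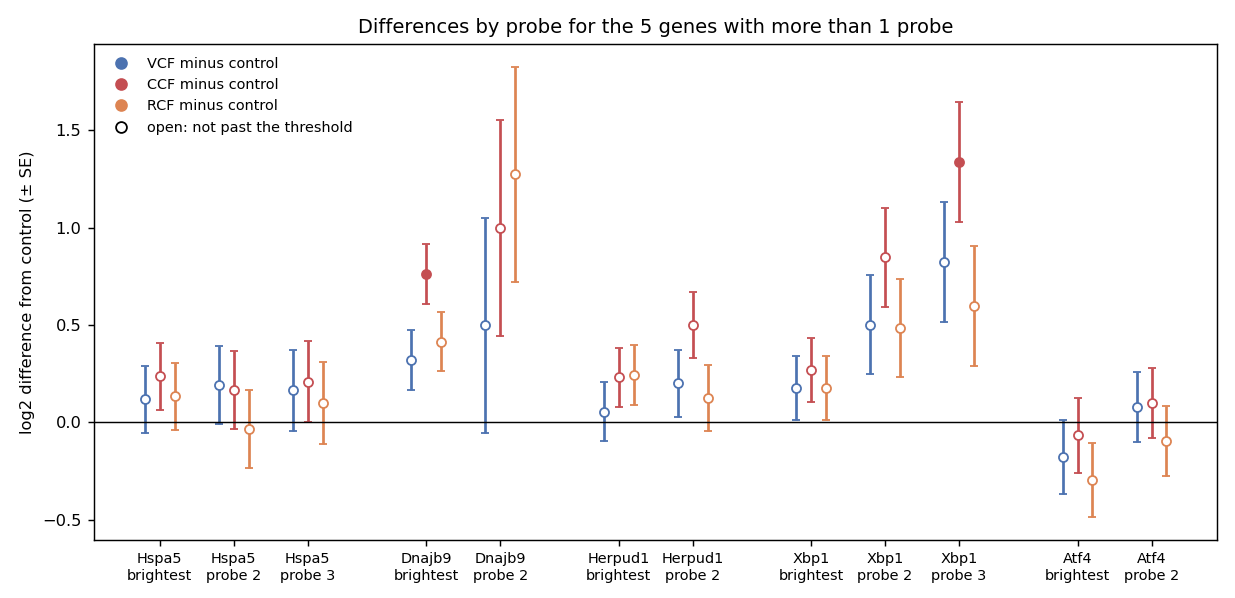
Log2 difference from control in VCF, CCF and RCF lungs for each probe of the genes with more than 1 probe. Points are differences, bars are ± SE, and filled points passed the adjusted threshold over all probes. Filled are the brightest Dnajb9 probe (0.76) and the dimmest Xbp1 probe (1.34), both in CCF lungs. The CCF differences of the other Xbp1 probes were 0.27 for the brightest and 0.85 for the intermediate one.

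Atf4, the transcription factor of the PERK branch, was 5.66, 5.79 and 5.83 in VCF lungs, 5.96, 6.06 and 5.58 in CCF lungs and 5.91, 5.50 and 5.51 in RCF lungs, against 5.87, 6.13, 5.87, 5.49 and 6.31 in control lungs. Controls held both the lowest and the highest value. Its differences were -0.18, -0.07 and -0.30 in VCF, CCF and RCF lungs (each ± 0.19 SE, limma adjusted p = 0.857, 0.883 and 0.57). A second Atf4 probe, also above background on all 14 arrays, differed by 0.08, 0.10 and -0.10 in VCF, CCF and RCF lungs (each ± 0.18 SE), the opposite sign in VCF and CCF, and did not pass over all probes (limma adjusted p = 0.949, 0.794 and 0.892).

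Ddit3 (CHOP), a transcription factor downstream of ATF4 that is known for its part in cell death under prolonged stress, was -0.43, -0.52 and 0.16 in VCF lungs, -0.19, -0.36 and 0.03 in CCF lungs and -0.22, -0.07 and -0.37 in RCF lungs, against -0.63, -0.93, -0.24, -0.51 and -0.36 in control lungs. All 9 fibre lungs were above the control mean of -0.53, but the ranges overlapped, control 3 being higher than several fibre lungs. The differences were 0.27, 0.36 and 0.31 in VCF, CCF and RCF lungs (each ± 0.20 SE, limma adjusted p = 0.745, 0.295 and 0.562), and that of the mean of the 3 fibres was 0.31 ± 0.15 (limma adjusted p = 0.277).

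Trib3 encodes a pseudokinase that ATF4 and CHOP induce and that feeds back on them. Its level was 1.32, 1.46 and 1.13 in VCF lungs, 1.12, 1.67 and 1.47 in CCF lungs and 1.28, 0.97 and 1.27 in RCF lungs, against 1.51, 1.30, 1.25, 1.26 and 0.96 in control lungs. The groups overlapped throughout, and the differences were 0.05, 0.17 and -0.08 (each ± 0.16 SE, limma adjusted p = 0.974, 0.598 and 0.91).

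The fibres were compared with each other to ask whether the stage of recycling made a difference. None of the 10 genes passed in any of the 3 comparisons in limma, where 0.222% of all genes were called between CCF and VCF, 0.00981% between RCF and VCF and 0.00327% between RCF and CCF. At an unadjusted p under 0.05, 2 genes were higher in CCF than in VCF lungs (7.56% of all genes), 2 were higher in RCF than in VCF lungs (6.17%) and 0 differed between RCF and CCF lungs (9.26%). Sec24d was 0.66 ± 0.18 higher in CCF than in VCF lungs on the log2 scale (interval 0.27 to 1.04, limma adjusted p = 0.145) and 0.84 ± 0.18 higher in RCF than in VCF lungs (interval 0.45 to 1.22, limma adjusted p = 0.189). Dnajb9 differed by 0.44 ± 0.17 between CCF and VCF lungs (interval 0.07 to 0.81, limma adjusted p = 0.278). Sec24d passed against control in CCF and RCF lungs and not in VCF lungs, but no difference between fibres passed for it.

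Ranges lay apart for Sec24d, Dnajb9 and Calr between CCF and VCF lungs, all 3 higher in CCF, where 10.7% of all genes lay apart in that direction. Between RCF and VCF lungs they lay apart for Sec24d and Calr, both higher in RCF, where 10.5% of all genes did. Dnajb9 was lower in all 3 RCF than in all 3 CCF lungs (-0.35 ± 0.17, limma adjusted p = 0.563), and 7.13% of all genes lay apart in that direction. Sec24d differed by 0.18 ± 0.18 between RCF and CCF lungs, with an interval of -0.20 to 0.57.

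Other genes of the pathway were read from 6 lists. Of 8 unfolded protein response sensors and eIF2alpha kinases, 19 further chaperones and folding enzymes and 13 cytosolic heat shock genes, none passed in any comparison with control. Over all genes, unadjusted p was under 0.05 for 4.97% higher and 4.99% lower in VCF, 12.9% higher and 10.8% lower in CCF and 8.78% higher and 4.15% lower in RCF lungs, and the counts at that threshold are read against these shares. Unadjusted p was under 0.05 in CCF lungs for 1 lower sensor, for 5 higher and 1 lower chaperones, and for 3 higher and 1 lower heat shock genes. In VCF lungs it was for 0 sensors, 4 lower chaperones and 3 higher heat shock genes, and in RCF lungs for 1 lower sensor, 2 higher and 1 lower chaperones and 0 heat shock genes. The lowest sensor by p was Atf6, which encodes the third sensor, at -0.39 ± 0.11 in CCF lungs (limma adjusted p = 0.0565). Dnajc3, a co-chaperone of the Hspa5 protein that also inhibits eIF2alpha kinases, differed by 0.59 ± 0.14 in RCF lungs (limma adjusted p = 0.115). Hspa1a, the inducible cytosolic HSP70, differed by 2.06 ± 0.60 in VCF lungs (limma adjusted p = 0.243).

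Of 18 genes of endoplasmic reticulum associated degradation, 1 passed, Herpud2, a relative of Herpud1, which was higher in CCF lungs (0.41 ± 0.11 SE, limma adjusted p = 0.0485) and in the mean of the 3 fibres (0.38 ± 0.08, limma adjusted p = 0.0407). In RCF lungs it differed by 0.53 ± 0.11 (limma adjusted p = 0.0877). Both calls were at the edge of the threshold: the CCF call held only without RCF 1 when single arrays were left out, and that of the mean held only without VCF 1 or RCF 1. Median scaling ended both (limma adjusted p = 0.456 in CCF lungs and 0.596 for the mean). Over all genes, 3.78% were called higher in CCF lungs and 2% in the mean of the 3 fibres. Unadjusted p was under 0.05 for 0 higher and 1 lower of the 18 genes in VCF lungs. It was for 4 higher and 0 lower in CCF lungs and for 4 higher and 0 lower in RCF lungs.

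Of 25 PERK and ATF4 target genes 24 were measured and 2 were called higher and 0 lower in CCF lungs, where the shares over all genes were 3.78% and 2.21%. Unadjusted p was under 0.05 for 1 higher and 0 lower of the 24 in VCF lungs, for 3 higher and 3 lower in CCF lungs and for 1 higher and 3 lower in RCF lungs. Slc7a3, a transporter of cationic amino acids, was 1.83-fold higher (0.88 ± 0.21 SE, limma adjusted p = 0.0361), and Ppp1r15b, the constitutive regulatory subunit of the phosphatase that reverses eIF2alpha phosphorylation, was 1.46-fold higher (0.55 ± 0.14, limma adjusted p = 0.0415). The stress-induced subunit Ppp1r15a differed by -0.54 ± 0.17 in RCF lungs (limma adjusted p = 0.196). The Slc7a3 call held without control 2, RCF 1, RCF 3 or any 1 VCF array and the Ppp1r15b call without control 3, VCF 1 or RCF 1, and both were lost without any other single array. Both were also lost under median scaling (limma adjusted p = 0.072 for Slc7a3 and 0.318 for Ppp1r15b), Slc7a3 with normexp (0.57, limma adjusted p = 0.0695) and Ppp1r15b with slide as a fixed block (0.48, limma adjusted p = 0.0589). The list as a whole had a median difference of -0.06 in CCF lungs.

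Sec24d belongs with the COPII coat, and of 24 other coat and translocon genes 23 were measured and 1 was called, higher in CCF lungs, a share close to the 3.78% of all genes called higher there. Sec23a, which pairs with Sec24 proteins in the inner coat, was 1.53-fold higher in CCF lungs (0.61 ± 0.14 SE, limma adjusted p = 0.0303), and its call was lost without control 1, control 4, control 5, CCF 1 or CCF 2 and under median scaling (limma adjusted p = 0.141). In VCF and RCF lungs it differed by 0.11 ± 0.14 and 0.31 ± 0.14 (limma adjusted p = 0.894 and 0.38). Sec24a, another member of the Sec24 family, differed by 0.60 ± 0.23 in RCF lungs (limma adjusted p = 0.297). Unadjusted p was under 0.05 in CCF lungs for 5 higher and 1 lower of the 23 genes, against 12.9% and 10.8% of all genes. In RCF lungs it was for 4 higher and 0 lower, against 8.78% and 4.15% of all genes, and in VCF lungs for 0. The list median was 0.15 in CCF and 0.10 in RCF lungs, against medians over all genes of -0.0031 and 0.06.

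**Figure D4:**
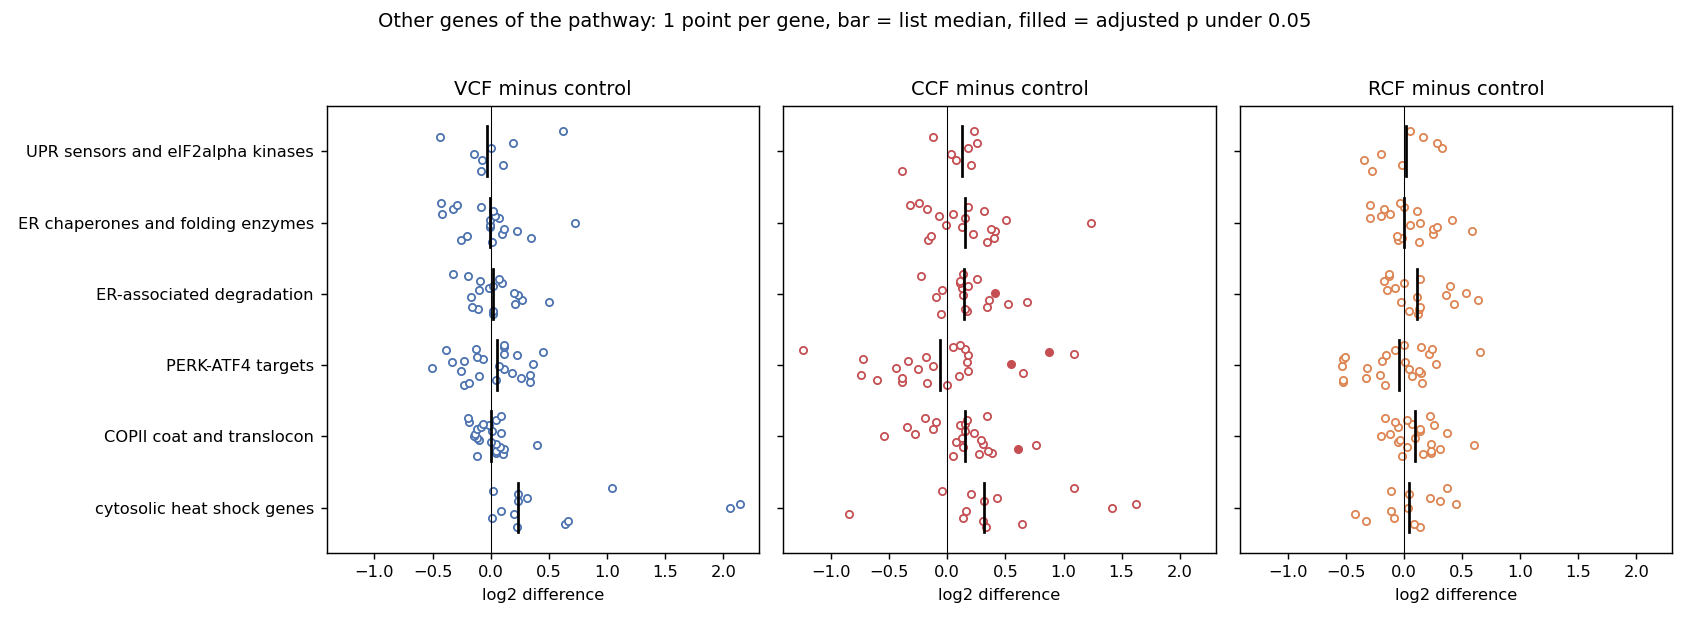
Log2 difference from control of every measured gene of the 6 pathway lists in VCF, CCF and RCF lungs; each point is a gene, filled points passed the adjusted threshold in limma and bars are list medians. Filled are Herpud2, Slc7a3, Ppp1r15b and Sec23a, all in CCF lungs, and Hspa1a in VCF lungs lies at 2.06.

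The 10 genes did not vary as 1 block. Over the 14 arrays with group means removed, 27 of the 45 pairs had a positive Pearson r. A permutation test of 100000 resamples, with Benjamini-Hochberg adjustment over the pairs, gave 2 of 45 an adjusted p under 0.05. It shuffled the remaining values freely across groups, as if all 14 were independent, although group means had been removed. Its p-values are therefore too small, and the 2 pairs are given as descriptions only. Hspa5 and Hsp90b1 had r = 0.81 (permutation adjusted p = 0.0117), and Spearman's rho was 0.69 (permutation adjusted p = 0.118). Without control 2 and control 4, the arrays farthest from the median of Hspa5, r was 0.89, and within the 7 arrays of slide 1 the levels had r = 0.63. Atf4 and Herpud1 had r = 0.81 (permutation adjusted p = 0.0117) and rho = 0.81 (permutation adjusted p = 0.0369). Their r was 0.79 without control 4 and control 5 and 0.48 within slide 1. Before group means were removed, 0 of 45 pairs passed. Dnajb9 and Sec24d, the 2 genes with calls, had r = 0.30 with group means removed (permutation adjusted p = 0.607) and rho = 0.14 (permutation adjusted p = 0.811). The values of an array share its labelling and scaling, and the 75th percentile of signal differed between arrays.

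**Figure D5:**
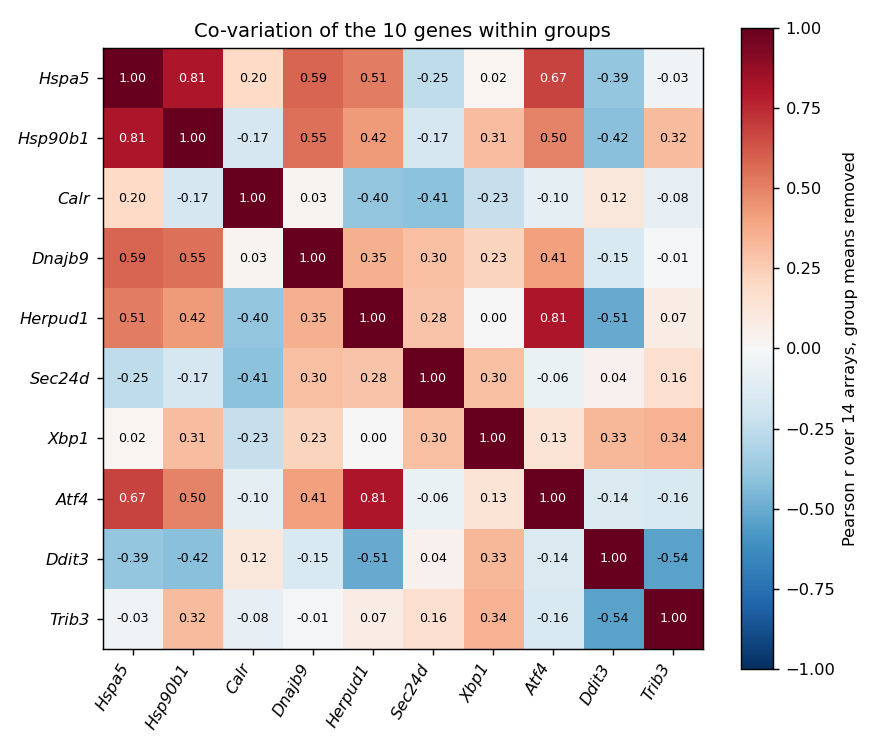
Pearson r between the log2 levels of each pair of the 10 genes over 14 arrays after group means were removed, on a colour scale between -1 and 1. Hspa5 with Hsp90b1 and Atf4 with Herpud1 stand at 0.81, and Ddit3 is negative with Trib3 (-0.54), Herpud1, Hsp90b1, Hspa5, Dnajb9 and Atf4.

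The genes most like Hspa5 over the 14 arrays with group means removed, out of 13386 searched, were Ywhah (r = 0.97), Ncbp3 (0.95), Socs7 (0.95), Cebpb (0.94) and Rassf2 (0.94). Hsp90b1 ranked 142 in that search, Atf4 638 and Sec24d 8998. These r values are descriptions of 14 arrays chosen as the highest of many.

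Cell markers moved between the groups as well. Each marker list is given as the range over arrays of the mean log2 level of its measured genes, relative to the control mean. Over all genes, 0.0294% were called higher and 0.0556% lower in VCF lungs and 3.78% higher and 2.21% lower in CCF lungs. In RCF lungs these shares were 0.131% and 0.0229%. Plasma cell and B cell markers (12 of 12 measured) ran from -0.62 up to -0.52 in VCF lungs, from -0.42 up to -0.22 in CCF lungs and from -0.48 up to -0.31 in RCF lungs, against -0.26 up to 0.11 in control lungs. They were below all controls on every VCF and RCF array, and 1 of the 12, the B cell receptor gene Cd79b, passed in CCF lungs (-0.98 ± 0.19 SE, limma adjusted p = 0.0174). Alveolar type 2 markers (10 of 10) ran from -0.33 up to 0.34 in VCF lungs, from -0.31 up to -0.03 in CCF lungs and from -0.16 up to -0.0039 in RCF lungs, against -0.12 up to 0.10 in control lungs, and none passed, with 1 higher and 2 lower in CCF lungs at an unadjusted p under 0.05. Neutrophil markers (12 of 13) ran from 0.74 up to 1.62 in VCF lungs, from -1.38 up to -0.63 in CCF lungs and from -1.0 up to 0.42 in RCF lungs, against -0.41 up to 0.48 in control lungs. They were above all controls on every VCF array and below all controls on every CCF array. Of the 12, 1 was called higher in VCF lungs, Stfa1 (2.69 ± 0.37 SE, limma adjusted p = 0.0401), 5 were called lower in CCF lungs, Cxcr2 by the most (-2.26 ± 0.52, limma adjusted p = 0.031), and 0 in RCF lungs. Macrophage markers (11 of 11) ran from 0.04 up to 0.35 in VCF lungs, from 0.12 up to 0.46 in CCF lungs and from 0.23 up to 0.28 in RCF lungs, against -0.13 up to 0.13 in control lungs. Of the 11, Spp1 was called higher in VCF lungs (1.57 ± 0.24, limma adjusted p = 0.0484), Siglecf in CCF lungs (0.59 ± 0.15, limma adjusted p = 0.0368) and 0 in RCF lungs. The median difference over the macrophage list was 0.014 in VCF, 0.35 in CCF and 0.31 in RCF lungs. Over all genes the medians were -0.0027, -0.0031 and 0.06. Endothelial and alveolar type 1 markers (8 of 9) ran from -0.41 up to 0.06 in VCF lungs, from -0.42 up to -0.16 in CCF lungs and from -0.32 up to -0.19 in RCF lungs, against -0.05 up to 0.10 in control lungs, and none passed. Macrophage markers were above all controls on every RCF array, while CCF 1 (0.12) lay within the control range. Endothelial and alveolar type 1 markers were below all controls on every CCF and RCF array. They were also below all controls on VCF 2 (-0.41) and VCF 3 (-0.31), and VCF 1 (0.06) lay within the control range. Airway secretory markers (9 of 9) ran from -0.27 up to 0.80 in VCF, -0.43 up to 0.64 in CCF and -0.65 up to 0.31 in RCF lungs, against -0.56 up to 0.68 in control lungs. Heart and skeletal muscle markers (9 of 9) spread widely, from -1.50 up to 2.79 (control 2) in control lungs and down to -2.10 (RCF 3). None of either list passed. The defining marker of each list was above background on all 14 arrays, and the part of these cells in the Sec24d and Dnajb9 differences was not tested.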

How the data were processed

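Feature Extraction 10.7.3.1 made the deposited processed signal, a background-subtracted spot intensity, per the file headers, on 1-colour Agilent arrays annotated on build mm9. The authors' deposited table of 32177 probes holds log2 values that equal log2 of that intensity minus a constant per array. Log2 intensity minus the 75th percentile of each array was computed from the array files, control spots and outlier spots left out and spots of 1 probe averaged. Of 56605 probes, 32994 received 1 symbol through RefSeq accessions and 23611 none. Probes above background on at least 3 of 14 arrays were kept, and a gene took its probe with the highest mean, leaving 30579 genes (30574 where RCF takes part). Of the 30579, 17290 had a symbol. limma 3.58.1 in R 4.3.3 fitted the 4 groups, with Benjamini-Hochberg adjustment per comparison, and was tested on simulated data. The arrays hold no mean signal column, so normexp used median signals. Replicate numbers were not taken as pairs. Named genes were the 10 members; per list and comparison the 2 largest called genes, or the smallest p as a value; and the 5 genes most like Hspa5. The genes, lists and rules were chosen with earlier results of these data known. Alternatives covered scaling, background, filter, probe choice, slide, replicate number, weights, single arrays and the deposited table.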

Additional observations from a re-analysis of the deposited data

How the results depend on the processing

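The number of the 10 genes called in CCF lungs, 2 in the main setting, was 0 with median scaling and with the replicate block. It was 1, Sec24d, with no filter on dim probes or the mean of all probes of a gene. It was also 1, Sec24d, with only the groups compared or without the dimmest array of each fibre group. Leaving out single arrays gave 0 to 2. In RCF lungs the count of 1 became 0 with quantile scaling, median scaling, no filter, the replicate block, only the groups compared and without the dimmest arrays, and 3 with array quality weights (Sec24d, Dnajb9 and Ddit3), and leaving out single arrays gave 0 to 1. For the mean of the 3 fibres the count of 2 became 1 with normexp, quantile scaling, the mean of all probes and without the dimmest arrays, and 0 with median scaling, no filter and the replicate block, and leaving out single arrays gave 0 to 2. Between RCF and VCF lungs the count of 0 became 2 with array quality weights (Sec24d 0.67, limma adjusted p = 0.0159, and Calr 0.47, limma adjusted p = 0.0221). Counts for VCF against control, CCF against VCF and RCF against CCF were 0 under every alternative run. Of 2090 recomputed differences, 1960 with an adjusted p, 52 lost a call, 4 gained one and 115 uncalled ones changed sign; no called difference changed sign. The cause of these changes was not tested.

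Replicate numbers were not taken as pairs in the main fit, by a rule that every same-numbered pair have r over 0.1. That rule is no test of pairing, and whether the numbers mark a shared batch was not tested. The deviations of same-numbered arrays from their group means had r between -0.28 and 0.63 over 18 pairs, median 0.18, 12 of them over 0.1 and 12 on a shared slide. Differently numbered arrays had a median r of -0.04 over 54 pairs, 11 of them over 0.1 and 13 on a shared slide. Of the 12 arrays numbered 1 to 3, 8 had their highest mean r with their own number in the other groups. The replicate block uses only arrays numbered 1 to 3. Under it Sec24d differed by 0.95 in CCF (limma adjusted p = 0.0995) and 1.14 in RCF lungs (limma adjusted p = 0.147), and Dnajb9 by 0.86 in CCF lungs (limma adjusted p = 0.101).

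Median scaling moved the median of all genes to -0.10 in VCF and RCF lungs, 0.14 for CCF against VCF and -0.15 for RCF against CCF. The number of all genes called ranged over the alternatives between 0 and 722 in VCF (26 in the main setting), 2 and 4791 in CCF (1832), 0 and 5633 in RCF (47), 0 and 5086 for the mean of the fibres (790), 0 and 656 for CCF against VCF (68), 0 and 2791 for RCF against VCF (3) and 0 and 2253 for RCF against CCF (1). The share of calls that were higher, 63.2% in CCF lungs, was 42% with median scaling. For the mean of the fibres it was 77.6%, 54.5% with median scaling and 65.5% with the deposited table, and in VCF lungs it was 34.6%, 0% with quantile scaling and 20.7% with the deposited table. For CCF against VCF it was 42.6%, 15.4% with median scaling and 57.3% with the deposited table. The second Dnajb9 probe was not above background on control 1, control 2 and VCF 1.

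Of the other pathway genes, 4 were called in CCF lungs, and the count was 0 with median scaling, no filter, the replicate block, only the groups compared and without the dimmest arrays, 2 with normexp, 7 with the deposited table, 10 with slide as a random block, 11 with probes above background on all 14 arrays and 15 with array quality weights. In RCF lungs the count of 0 was 1 with slide as a fixed or random block and with probes above background on all 14 arrays, and 19 with array quality weights, and for the mean of the 3 fibres the count of 1 ranged between 0 and 20. Leaving out single arrays gave 0 to 5 in CCF lungs, 0 in RCF lungs and 0 to 1 for the mean.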
